A study of Mus musculus with 12 samples.

Results

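The expression of 36 genes of the cell division cycle was followed in mouse skin under topical baricitinib or vehicle. The genes were taken by name: 17 act at the entry into and during S phase (4 regulators of the G1 to S step and 13 genes of DNA replication and nucleotide supply), and 19 act in G2 and mitosis. Of the 36, 35 had a probe set that the array's annotation ties to 1 gene symbol, out of 18193 such genes in all. Ccnb1 was the gene without one, which left 17 S phase and 18 mitotic genes. Each gene was read from 1 probe set, the one with the highest mean over the 12 arrays.

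A dividing cell first commits to replication, when D and E type cyclins with their kinases release E2F factors from the retinoblastoma family, then loads the MCM helicase at origins with the help of Cdc6 and Cdt1, and copies its DNA once. Genes for these steps are switched on by E2F. Cyclin A, cyclin B and Cdk1 then drive the cell into mitosis, where kinesins, Aurora and Polo kinases and the Bub spindle checkpoint move and guard the chromosomes. Many of these later genes are held in the DREAM and MuvB programme through CHR elements of their promoters, which often hold CCAAT boxes as well. In skin the cells that divide most are the matrix cells at the base of growing hair follicles and the basal layer of the epidermis, and activated lymphocytes divide as well.

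All mice came from the C3H/HeJ graft model of alopecia areata, in which skin of affected C3H/HeJ donors is grafted to recipients of the same strain, and recipients were kept at least 12 more weeks, so that both treatments were begun after hair loss was established. Baricitinib, an inhibitor of the Janus kinases JAK1 and JAK2, or vehicle was put on the skin daily. Skin samples were taken from 3 baricitinib and 3 vehicle mice at week 0, when treatment started, and from the same mice at week 12, which gave 4 groups of 3 arrays. No group was of healthy skin, and each treatment is represented by 3 animals.

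Values are log2 signals after RMA, the background correction, quantile normalization and probe summary used for these arrays, so a difference of 1 is a 2-fold difference in signal. Changes were tested with limma over all 45037 probe sets, a gene was called at a Benjamini-Hochberg adjusted p under 0.05, and errors of changes are standard errors (SE). The p-values measure the spread between these 12 samples. Since whole skin was sampled, fewer cells of a type and less RNA per cell cannot be told apart. The mean level of the members ran from 4.35 to 11.49 with a median of 8.67, against 7.18 for all genes, and 1 member, Tyms, lay below the array median on all 12 arrays. The 8 markers of basal keratinocytes averaged 10.86 to 12.17 per array, and none lay below the array median in any group, so that the marker genes of skin were present on every array. Baricitinib mouse 2 at week 0 and mouse 1 at week 12 correlated least with the other arrays (median rho of 0.931 and 0.937, the other 10 at 0.955 to 0.972). The study's methods left some arrays out after quality control without naming them, among them 1 from baricitinib at each time and 1 control at baseline. Results are therefore also given without the 2 arrays of lowest correlation, which need not be those that the study removed.

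The first comparison asks how the division genes of diseased skin moved over 12 weeks of baricitinib. Of the 35 members measured, 7 fell between week 0 and week 12 and 0 rose, while 1.55% of all genes fell and 0.500% rose. The 7 were the replicative helicase subunits Mcm5 and Mcm2, the spindle checkpoint kinase genes Bub1 and Bub1b, the mitotic kinase gene Cdk1 and its cyclins Ccna2 and Ccnb2. The log2 change was below 0 in 34 of 35 members, against 51.4% of all genes, and its median was -1.0, against -0.02 over all genes. Without adjustment 22 members had a limma p under 0.05 and were lower, and 0 were higher, against 8.64% and 6.73% of all genes. In 20 members the 3 week 12 values all lay below the 3 week 0 values, as they did in 10.6% of all genes. In 25 members all 3 mice had the lower value at week 12, against 16.3% of all genes. The one member above 0 was Ttk, the Mps1 spindle checkpoint kinase. In 10 members the 3 baricitinib week 12 values were the lowest 3 of the 12, which was so in 4.59% of all genes: Mcm2, Mcm3, Mcm5, Rrm2, Bub1, Bub1b, Cdk1, Ccna2, Ccnb2 and Cdc20.

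**Figure D1:**
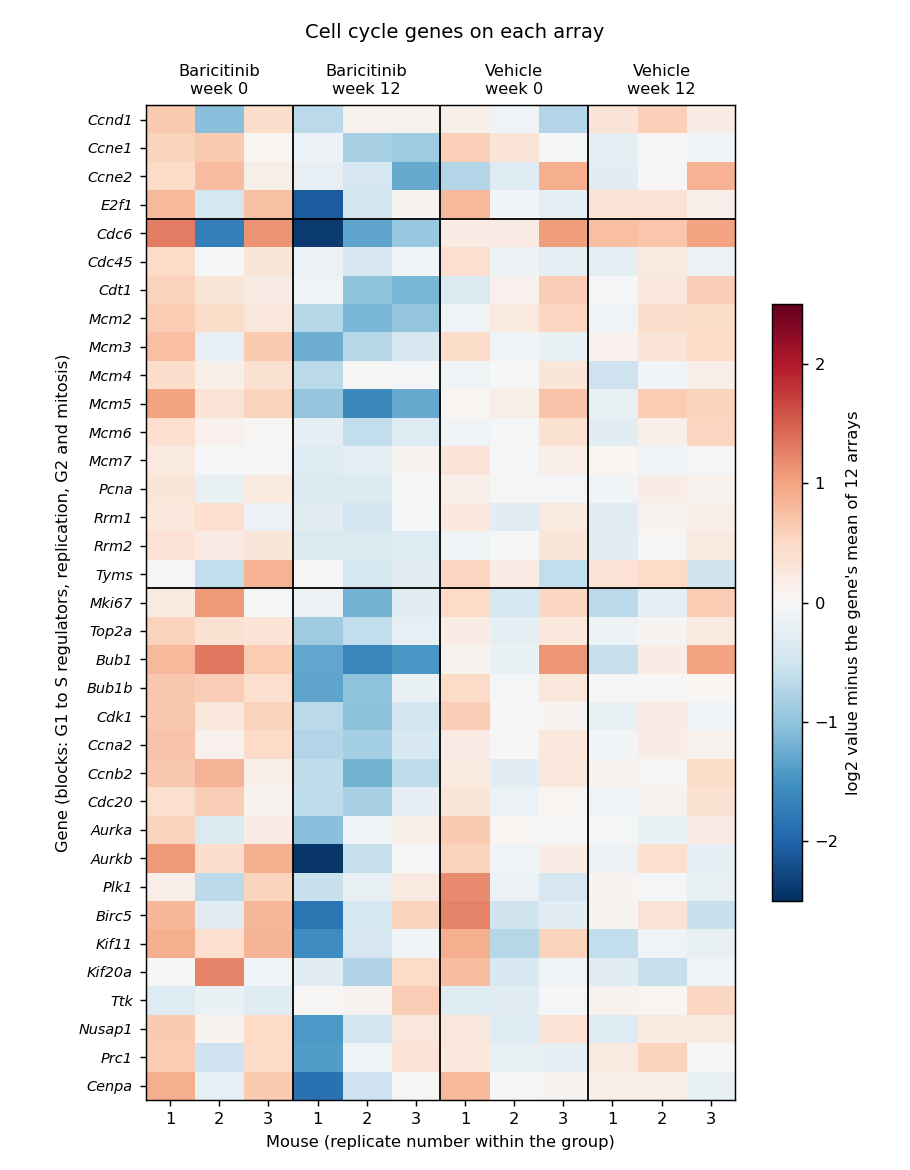
Heat map of the 35 members (rows, in blocks of G1 to S regulators, replication genes, and G2 and mitosis genes) on the 12 arrays (columns, by group and mouse), coloured by the log2 value minus the mean of the gene over the 12 arrays. The 3 baricitinib week 12 columns are mostly blue, the lowest value of the 12 lying there in 31 of 35 members and in 6510 of all 18193 genes. Ttk runs the other way.

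Among the replication genes the MCM helicase subunits carried the calls. Mcm5, one of the 6 subunits that unwind DNA at the fork, stood at 9.91, 9.23 and 9.47 in the 3 baricitinib mice at week 0 and at 7.94, 7.30 and 7.65 in the same mice at week 12. In the vehicle mice Mcm5 stood at 8.96, 9.06 and 9.62 at week 0 and at 8.71, 9.53 and 9.46 at week 12. All 3 baricitinib week 12 values lay below the other 9, and Mcm5 fell by 1.90 ± 0.31 (SE, n = 3 mice), 3.74-fold, with a limma adjusted p of 0.0163. Mcm2, another subunit, stood at 9.32, 9.14 and 8.98 before baricitinib and at 7.98, 7.54 and 7.70 after it. Vehicle mice had 8.60, 8.94 and 9.23 at week 0 and 8.58, 9.12 and 9.15 at week 12, so that the 3 low values were again those after baricitinib. Mcm2 fell by 1.40 ± 0.25, 2.64-fold (limma adjusted p = 0.0227). The other subunits did not pass the test: the log2 difference was -1.18 ± 0.31 for Mcm3 (limma adjusted p = 0.106), -0.58 ± 0.26 for Mcm6 (0.387), -0.56 ± 0.26 for Mcm4 (0.423) and -0.21 ± 0.20 for Mcm7 (0.757). A second probe set of Mcm3 did pass, at -1.42 ± 0.22 (limma adjusted p = 0.0152). The difference between subunits was not tested.

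The loading factors and nucleotide enzymes had differences below 0 without a call. Cdc6, which loads the helicase, had a log2 difference of -1.78 ± 0.67 (limma adjusted p = 0.279). Its week 0 values spread widely, at 8.13, 5.15 and 7.98. Week 12 gave 4.46, 5.54 and 5.91, so the groups overlapped through mouse 2 at week 0, one of the 2 arrays of lowest correlation. Without those 2 arrays Cdc6 was called. Cdt1, its partner, had -1.11 ± 0.33 (0.157) with groups that did not overlap. Rrm2, the small subunit of ribonucleotide reductase, stood at 11.76, 11.59 and 11.69 at week 0 and at 11.04, 11.03 and 11.07 at week 12. Vehicle mice had Rrm2 at 11.28, 11.41 and 11.69, then at 11.10, 11.43 and 11.62, all above the baricitinib week 12 values. Its log2 difference of -0.64 ± 0.21 had a limma adjusted p of 0.196. Pcna, the sliding clamp of the polymerases, stood at 11.79, 11.31 and 11.74 before and 11.13, 11.15 and 11.49 after baricitinib, and at 11.61, 11.52, 11.47 and 11.42, 11.67, 11.58 with vehicle. These groups overlapped (log2 difference -0.36 ± 0.21, limma adjusted p = 0.558). Tyms, thymidylate synthase, was dim: it stood at 4.30, 3.73 and 5.22 before and 4.37, 3.92 and 4.09 after baricitinib, and at 4.90, 4.56, 3.73 and 4.72, 4.85, 3.85 with vehicle. Its groups overlapped throughout, and only 1 of 3 baricitinib mice was lower at week 12. The remaining replication genes, Rrm1 and Cdc45, each had a log2 difference of -0.44 ± 0.25 (limma adjusted p = 0.549 and 0.533).

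Of the 4 regulators of S phase entry, 0 were called. Ccne1, cyclin E1, stood at 7.16, 7.25 and 6.66 before and 6.46, 5.78 and 5.71 after baricitinib, with no overlap and a log2 difference of -1.04 ± 0.27 (limma adjusted p = 0.104). Vehicle mice had Ccne1 at 7.20, 6.93 and 6.57 at week 0 and at 6.36, 6.63 and 6.53 at week 12, lower in 3 of 3 mice but overlapping as groups. Ccne2, cyclin E2, had -1.10 ± 0.45 (0.329) and E2f1, the activator of S phase genes, -1.19 ± 0.52 (0.380). Ccnd1, cyclin D1, which answers growth signals before the cell commits, stood at 10.94, 9.24 and 10.72 before and 9.60, 10.36 and 10.37 after baricitinib. Its groups overlapped, with a log2 difference of -0.19 ± 0.42 (limma adjusted p = 0.915), the sign of which turned when single arrays were left out. With vehicle Ccnd1 stood at 10.42, 10.19 and 9.55 and then at 10.61, 10.87 and 10.47.

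Among the mitotic genes the checkpoint kinase Bub1 moved most. Bub1 stood at 8.87, 9.36 and 8.69 at week 0 and at 6.75, 6.42 and 6.60 at week 12 of baricitinib. It fell by 2.39 ± 0.41, 5.23-fold (limma adjusted p = 0.0214), with changes of -2.12, -2.94 and -2.09 in mice 1 to 3. With vehicle Bub1 stood at 8.13, 7.88 and 9.16 and then at 7.47, 8.23 and 9.05, above all values after baricitinib. Bub1b, which encodes the checkpoint protein BubR1, stood at 7.69, 7.64 and 7.41 before and 5.71, 6.02 and 6.85 after baricitinib, and fell by 1.39 ± 0.28 (limma adjusted p = 0.0396). Vehicle mice had Bub1b at 7.49, 6.99 and 7.31 and then at 7.03, 7.03 and 7.06. The lowest vehicle value thus lay above the highest one after baricitinib.

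Cdk1, the kinase that starts mitosis, and its cyclins fell together. Cdk1 stood at 9.33, 8.94 and 9.24 before and 7.98, 7.64 and 8.21 after baricitinib, a fall by 1.23 ± 0.25 or 2.35-fold (limma adjusted p = 0.0387). Vehicle mice had Cdk1 at 9.28, 8.67 and 8.72 and then at 8.48, 8.87 and 8.57. Ccnb2, cyclin B2, fell by 1.36 ± 0.27 (0.0390), from 8.83, 9.0 and 8.28 to 7.52, 6.98 and 7.53. The vehicle values of Ccnb2 were 8.40, 7.87 and 8.44 at week 0 and 8.25, 8.18 and 8.62 at week 12. Cyclin A2, encoded by Ccna2 and used in both S phase and G2, fell by 1.09 ± 0.23 (0.0423), from 9.82, 9.21 and 9.58 to 8.37, 8.26 and 8.72. Its vehicle values were 9.31, 9.12 and 9.38, then 9.04, 9.29 and 9.20. In none of the 3 genes did the values after baricitinib overlap with any other group.

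The proliferation marker Mki67, the gene of Ki-67, was not called. It stood at 10.38, 11.23 and 10.16 before and 10.01, 8.97 and 9.89 after baricitinib, with no overlap but with unequal changes of -0.36, -2.26 and -0.26 in mice 1 to 3, and the log2 difference was -0.96 ± 0.43 (limma adjusted p = 0.397). Vehicle mice had Mki67 at 10.65, 9.72 and 10.68 and then at 9.50, 9.93 and 10.79. Top2a, the topoisomerase that untangles sister chromatids, came close to the threshold, at 9.46, 9.27 and 9.23 before and 8.01, 8.28 and 8.68 after (log2 difference -1.0 ± 0.23, limma adjusted p = 0.0682). Its vehicle values were 9.07, 8.67 and 9.16, then 8.77, 8.95 and 9.12, all but one above the highest value after baricitinib. Cenpa, the centromeric histone, stood at 8.48, 7.37 and 8.22 and then at 5.70, 7.05 and 7.59 with baricitinib, an overlap (-1.24 ± 0.45, limma adjusted p = 0.259). With vehicle Cenpa stood at 8.38, 7.56 and 7.63, then at 7.73, 7.71 and 7.39. Plk1, Polo-like kinase 1, was dim, at 5.10, 4.27 and 5.48 before and 4.36, 4.75 and 5.15 after baricitinib, and at 6.10, 4.77, 4.50 and 5.0, 4.89, 4.74 with vehicle. Its groups overlapped in every comparison of the 4.

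The remaining 9 mitotic genes were not called. The Aurora B kinase gene Aurkb (log2 difference -1.81 ± 0.50, limma adjusted p = 0.123), the spindle kinesin gene Kif11 (-1.40 ± 0.45, 0.183) and the anaphase activator Cdc20 (-0.92 ± 0.25, 0.108) had groups that did not overlap. Survivin (Birc5, -1.03 ± 0.61), Nusap1 (-0.94 ± 0.39), Prc1 (-0.59 ± 0.43), Kif20a (-0.58 ± 0.43) and Aurora A (Aurka, -0.46 ± 0.35) overlapped. Ttk had +0.49 ± 0.23 (limma adjusted p = 0.419), from 8.44, 8.61 and 8.47 to 8.79, 8.84 and 9.38, and the vehicle values of Ttk ran from 8.46, 8.51 and 8.74 to 8.86, 8.81 and 9.29. The values of Ttk were higher at week 12 in 6 of 6 mice, and the groups did not overlap over time under either treatment. Higher groups without overlap were seen in 8.94% of all genes with baricitinib and 5.94% with vehicle. Its second probe set had +0.88 ± 0.35 with baricitinib.

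The calls rested on few arrays. With each mouse as a fixed block, which compares week 12 with week 0 within the mouse, 2 of the 7 calls were kept, Bub1 (limma adjusted p = 0.0314) and Mcm5 (0.0343), while Mcm2 had 0.0603 and the other 4 had 0.111 to 0.124. Without the 2 arrays of lowest correlation 6 members were called, all lower: Mcm5, Mcm2, Cdk1 and Ccna2 were kept, and Mcm3 and Cdc6 came in. With single arrays left out, 0 were called without baricitinib week 0 mouse 1, week 0 mouse 3 or week 12 mouse 2, 1 without week 12 mouse 3, and 3 without baricitinib week 0 mouse 2, vehicle week 0 mouse 2 or any 1 of the 3 vehicle week 12 arrays. The median change stayed between -1.08 and -0.70 over these. The 3' minus 5' signal of the beta-actin control probe sets, a sign of RNA integrity and amplification, was 1.53 and 1.52 on baricitinib week 12 arrays 2 and 3 and 1.62 on vehicle week 0 array 1, against 2.94 to 4.36 on the other 9. As a covariate, the mean of this difference and that of the Gapdh control probe sets was used. With it 14 members were called, all lower and all 7 among them. Over all genes it called 618 lower and 465 higher, in place of 282 and 91. The part of these signals in the results was not tested otherwise.

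**Figure D2:**
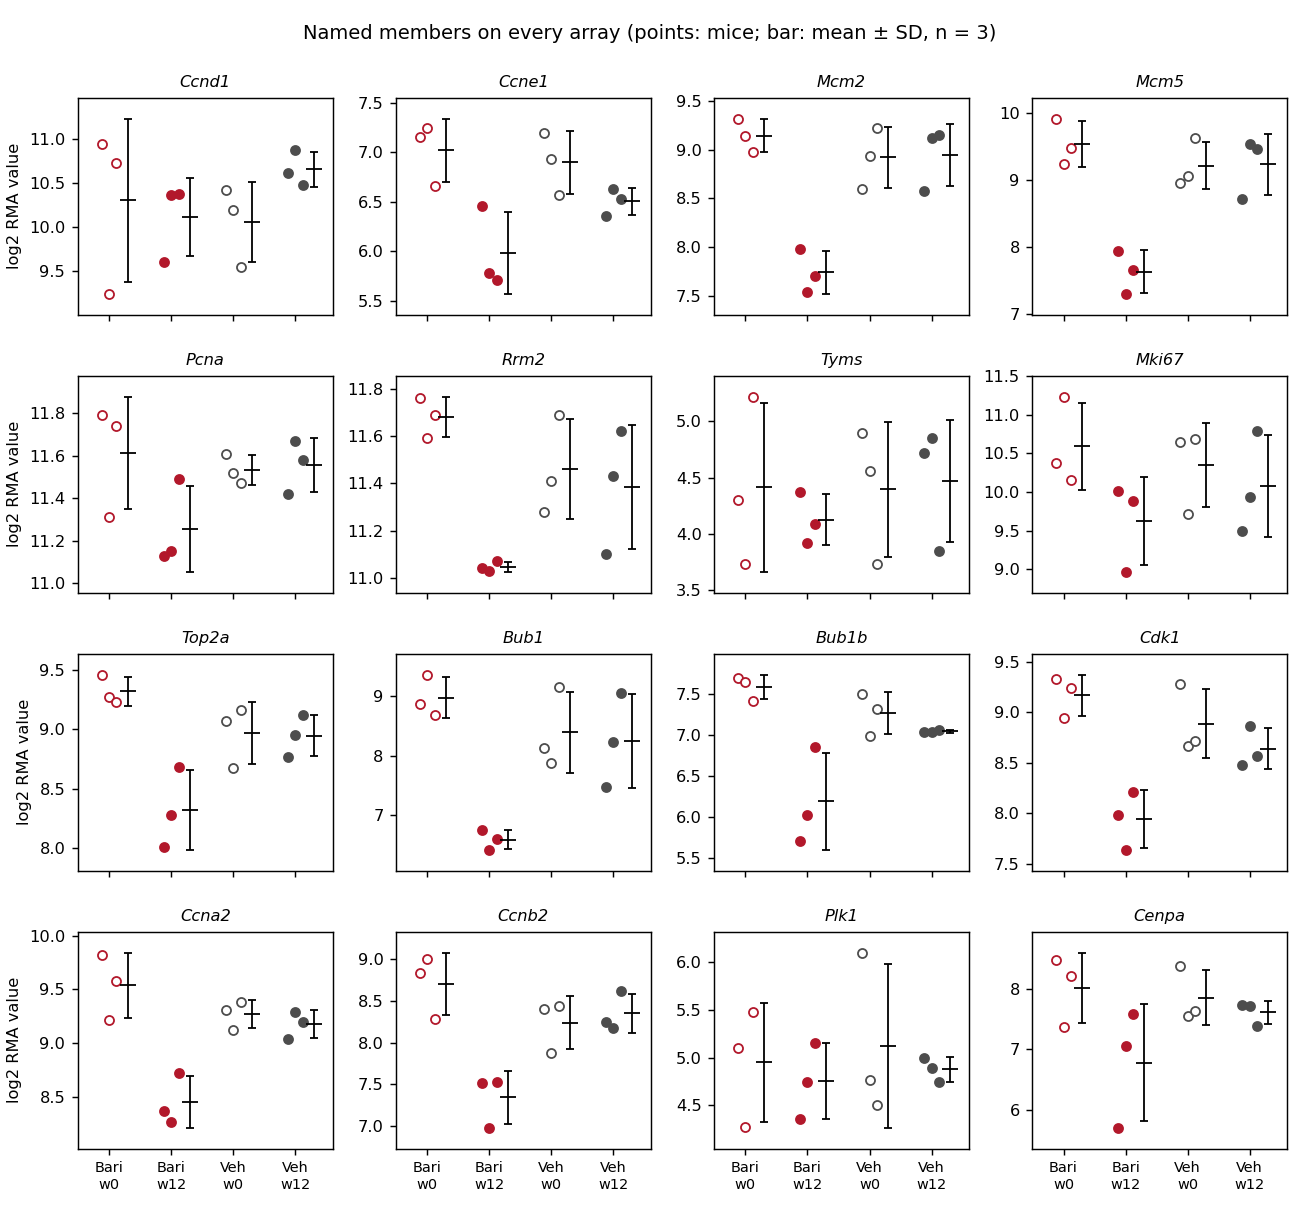
Log2 values of 16 members on every array, in panels by gene: open red points are baricitinib (Bari) week 0, filled red baricitinib week 12, open grey vehicle (Veh) week 0 and filled grey vehicle week 12, each point 1 mouse, with the group mean ± SD (n = 3) beside it. Each y axis covers the range of its own gene; in Mcm5, Mcm2, Rrm2, Bub1, Bub1b, Cdk1, Ccna2 and Ccnb2 the filled red points lie below all others, and in Tyms and Plk1 all groups overlap.

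Promoters are printed here for the S phase and mitotic members with the largest changes, to show the elements that the search below counts in each class. The windows hold the 250 bases before the annotated start (RefSeq, GRCm38.p6) of the 2 S phase and the 2 mitotic members with the largest change under baricitinib for which the table held a promoter (it held none for Aurkb): Mcm5 at chr8:75109259-75109508 on the plus strand, Cdc6 at chr11:98907901-98908150 on the plus strand, Bub1 at chr2:127831860-127832109 on the minus strand and Kif11 at chr19:37376132-37376381 on the plus strand. Capitals mark matches on either strand to an E2F element (TTTGGCGC, TTTCCCGC, TTTCGCGC or TTTGCCGC), a CCAAT box (CCAAT) or a CHR (TTTGAA or TTCGAA).
Mcm5: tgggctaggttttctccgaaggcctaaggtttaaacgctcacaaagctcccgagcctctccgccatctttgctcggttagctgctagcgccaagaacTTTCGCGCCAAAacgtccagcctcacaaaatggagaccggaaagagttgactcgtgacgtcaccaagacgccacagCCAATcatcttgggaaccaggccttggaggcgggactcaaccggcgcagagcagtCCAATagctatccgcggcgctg
Cdc6: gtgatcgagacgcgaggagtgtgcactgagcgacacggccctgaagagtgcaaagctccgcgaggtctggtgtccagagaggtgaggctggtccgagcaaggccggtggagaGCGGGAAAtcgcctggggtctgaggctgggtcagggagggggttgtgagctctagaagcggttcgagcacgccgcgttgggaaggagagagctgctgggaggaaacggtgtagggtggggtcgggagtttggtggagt
Bub1: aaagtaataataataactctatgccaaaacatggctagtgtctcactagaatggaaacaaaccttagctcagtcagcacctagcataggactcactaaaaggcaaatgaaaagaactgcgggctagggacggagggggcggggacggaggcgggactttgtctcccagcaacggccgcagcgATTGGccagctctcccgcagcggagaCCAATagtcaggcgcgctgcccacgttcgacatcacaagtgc
Kif11: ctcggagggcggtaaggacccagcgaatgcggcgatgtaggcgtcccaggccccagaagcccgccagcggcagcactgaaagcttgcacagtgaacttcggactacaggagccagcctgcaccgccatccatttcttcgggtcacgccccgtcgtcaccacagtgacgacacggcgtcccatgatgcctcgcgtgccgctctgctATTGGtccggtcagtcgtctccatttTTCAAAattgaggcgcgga

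In the Mcm5 window 2 E2F matches on opposite strands overlap, starting at positions -153 and -149 from the start, and 2 CCAAT boxes follow, with another 7 bases after the start. Cdc6 holds 1 E2F match, on the minus strand, and no CCAAT box. Bub1 holds a CCAAT box in each orientation and a CHR that starts 15 bases after the start, outside the printed window. Kif11 holds 1 CCAAT box, on the minus strand, and a CHR at position -19 from the start.

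The same search covered the whole window, from 250 bases before to 50 bases after the start, in the 32 promoters of 30 members in the table. A CHR match was found in 14 of 17 promoters of mitotic members (82.4%) and in 3 of 15 of S phase members, against 19.2% of all 32851 promoters outside chromosome 18. An E2F match was found in 6 of 15 S phase promoters (40.0%) and in 1 of 17 mitotic ones (5.88%), that of Cdk1, against 2.26% of all. A CCAAT box was found in 15 of 17 mitotic promoters (88.2%) and 10 of 15 S phase promoters (66.7%), against 37.4% of all. A match is a run of letters and not a measured binding site.

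The second question was whether S phase and mitotic genes moved apart. The mean change with baricitinib was -0.85 over the 17 S phase genes, of which 2 fell, and -1.01 over the 18 mitotic genes, of which 5 fell. The medians were -0.64 and -1.02. The difference between the class means, -0.16 for mitotic minus S phase, was smaller than the SD of that difference between arrays of a group, 0.263. By mouse, the S phase mean changed by -1.18, -0.55 and -0.81 and the mitotic mean by -1.60, -0.94 and -0.47 with baricitinib. The mitotic change lay further below 0 than the S phase change in mice 1 and 2 and nearer to 0 in mouse 3. With vehicle the S phase mean changed by -0.18, 0.24 and 0.09 and the mitotic mean by -0.63, 0.29 and -0.04. Without the 2 arrays of lowest correlation the difference of the classes under baricitinib turned to 0.14. These are descriptions of chosen genes, and the classes were not set against each other in a test.

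Within the classes the week 12 arrays were not alike. Mitotic genes averaged 7.01, 7.39 and 7.98 in baricitinib mice 1 to 3 at week 12, against 8.61, 8.34 and 8.45 at week 0, while S phase genes averaged 7.96, 8.0 and 8.15 against 9.14, 8.55 and 8.96. The array of mouse 1 held the lowest of the 12 values for 9 of 18 mitotic genes and that of mouse 2 for 7, while that of mouse 3 held it for 0. Over all genes the lowest value lay on 1 of these 3 arrays in 6510 of 18193, a count not split by mouse. Aurkb stood at 4.45, 6.30 and 6.86, Birc5 at 7.34, 8.72 and 9.73 and Kif11 at 5.46, 6.59 and 6.93 on these arrays. Bub1, Cdk1 and Ccnb2 did not share that spread. Mouse 1 at week 12 is one of the arrays of low correlation, and its 3' minus 5' actin signal was 3.52, against 1.53 and 1.52 in mice 2 and 3, whose part in this spread was not tested.

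**Figure D3:**
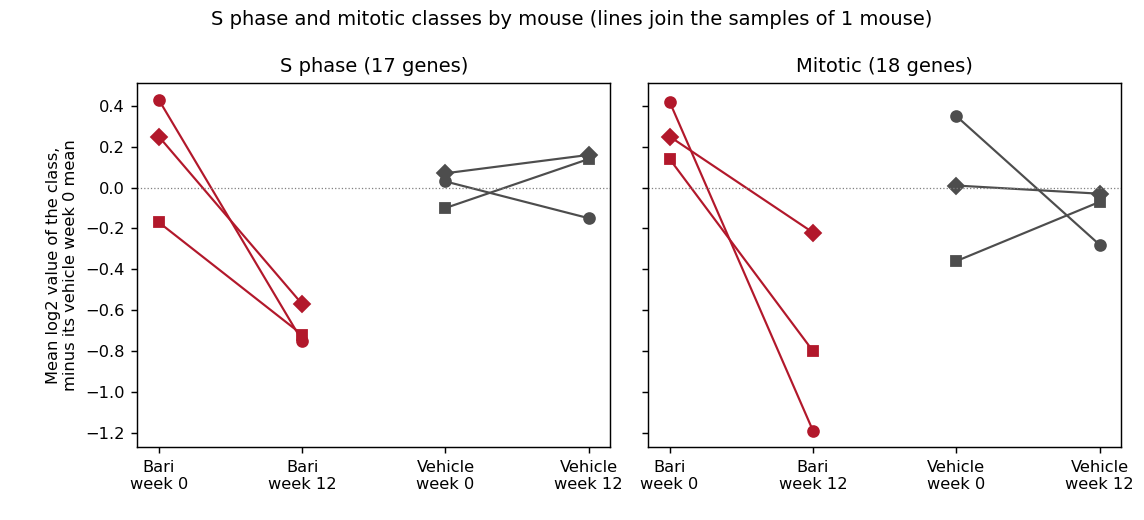
Mean log2 value of the 17 S phase genes (left) and the 18 mitotic genes (right) on each array, minus the mean of the class over the vehicle week 0 arrays, with a line joining the week 0 and week 12 samples of each mouse (red, baricitinib (Bari); grey, vehicle; circle, square and diamond for mice 1, 2 and 3). All 3 baricitinib mice are lower at week 12 in both panels, with changes of -1.18 to -0.55 for S phase and -1.60 to -0.47 for mitotic genes, and the vehicle changes lie between -0.63 and 0.29.

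The vehicle mice show how these genes stood after 12 weeks without the drug. Between week 0 and week 12, 0 members were called and 0 reached an unadjusted p under 0.05 in limma, and over all genes 0.00% were called lower and 0.00% higher, with 1.31% and 1.64% at an unadjusted p. The log2 change was below 0 in 20 of 35 members, against 42.2% of all genes, with a median of -0.07, against 0.05. The 3 largest differences upwards were +0.60 ± 0.42 for Ccnd1, +0.42 ± 0.23 for Ttk and +0.33 ± 0.67 for Cdc6, and the 3 largest downwards were -0.55 ± 0.45 for Kif11, -0.42 ± 0.43 for Kif20a and -0.39 ± 0.27 for Ccne1, each with a limma adjusted p of 1. Ccnd1 and Ttk had vehicle groups that did not overlap, both higher at week 12, as had 5.94% of all genes, and 0 members had groups apart in the lower direction, against 3.51%. In 4 members all 3 vehicle mice had the lower value at week 12, against 10.7% of all genes. The members that fell with baricitinib had vehicle differences from -0.25 ± 0.25 (Cdk1) to 0.11 ± 0.27 (Ccnb2).

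The treatments were then compared at week 12, on baricitinib arrays that also enter the comparison over time. Mcm5 was lower with baricitinib than with vehicle by 1.60 on the log2 scale (-1.60 ± 0.31, 3.04-fold, limma adjusted p = 0.0463), and no other member was called, where 0.709% of all genes were called lower and 0.242% higher. The log2 difference was below 0 in 33 of 35 members, against 54.8% of all genes, with a median of -0.57, against -0.04. In 15 members the baricitinib values all lay below the vehicle values, against 13.3% of all genes, and in 0 members they all lay above, against 6.70%. The largest difference was that of Cdc6, at 4.46, 5.54 and 5.91 with baricitinib and 7.61, 7.55 and 7.85 with vehicle (-2.36 ± 0.67, limma adjusted p = 0.178), followed by Bub1 (-1.66 ± 0.41, 0.118). Mcm2 had -1.21 ± 0.25 with a limma adjusted p of 0.0585. At the other end stood Kif20a (+0.13 ± 0.43), Ttk (+0.02 ± 0.23) and Mcm4 (-0.09 ± 0.26), near 0. The other members whose groups did not overlap were E2f1, Mcm3, Cdt1, Ccnb2, Bub1b, Ccna2, Cdk1, Cdc20, Top2a, Ccnd1 and Rrm2, with differences from -1.11 ± 0.52 (E2f1) to -0.34 ± 0.21 (Rrm2). Cenpa (-0.83 ± 0.45), Ccne1 (-0.53 ± 0.27), Mki67 (-0.45 ± 0.43), Tyms (-0.35 ± 0.42), Pcna (-0.30 ± 0.21) and Plk1 (-0.12 ± 0.42) had groups that overlapped.

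The single call at week 12 was close to the threshold. Mcm5 lost it when each array was centred on its median, when cyclic loess replaced the deposited scale, when its 3 probe sets were averaged, when only the 2 groups were fitted, and in 8 of 12 fits that left out 1 array (all but those without baricitinib week 0 mouse 2, baricitinib week 12 mouse 1, vehicle week 0 mouse 1 or vehicle week 0 mouse 3), and its adjusted p ran from 0.000154 to 0.192 over all alternatives. Without the 2 arrays of lowest correlation 3 members were called lower, Mcm5, Mcm2 and Cdc6.

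At week 0, before the drug, 0 members were called and 0 reached an unadjusted p under 0.05, with 0.00% of all genes called in either direction and 0.539% lower and 0.423% higher at an unadjusted p. The difference of baricitinib minus vehicle was above 0 in 30 and below 0 in 5 of 35 members, against 49.2% of all genes below 0, with a median of 0.24, against 0.00 over all genes. The largest were +0.59 ± 0.50 for Aurkb, +0.58 ± 0.41 for Bub1 and +0.52 ± 0.45 for Ccne2, and the lowest -0.25 ± 0.67 for Cdc6, -0.17 ± 0.42 for Plk1 and -0.10 ± 0.20 for Mcm7. Top2a was the 1 member whose groups did not overlap, higher in the baricitinib mice by +0.35 ± 0.23, as were 2.25% of all genes, and 0 were lower without overlap, against 2.70%. These week 0 baricitinib arrays are also those of the comparison over time.

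**Figure D4:**
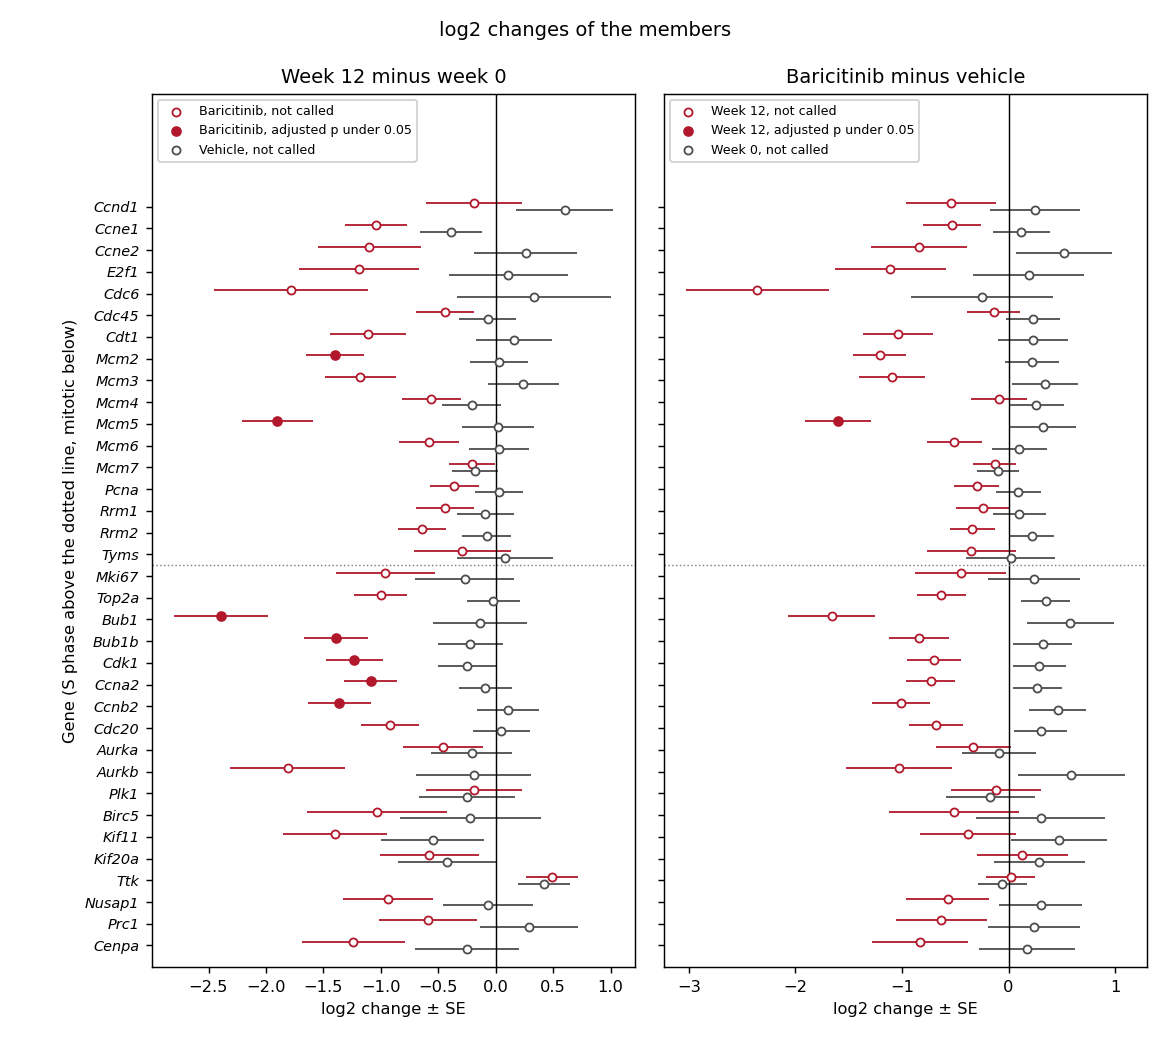
Log2 changes ± SE of the 35 members from limma, over time on the left (red, baricitinib; grey, vehicle) and between treatments on the right (red, week 12; grey, week 0); filled points have an adjusted p under 0.05, and the dotted line parts S phase from mitotic genes. The 7 filled points on the left lie between -2.39 and -1.09, while grey points on the left stay between -0.55 and 0.60.

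The change with baricitinib was last set against the change with vehicle. In this test 0 members were called, as were 0.00% of all genes, and 13 of 35 had an unadjusted p under 0.05 in limma with the larger drop under baricitinib, against 4.81% of all genes, and 0 had one in the other direction, against 2.60%. The difference of changes was below 0 in 33 of 35 members, against 56.4% of all genes, with a median of -0.87, against -0.07. It was -2.25 ± 0.59 for Bub1 (limma adjusted p = 0.350), -2.11 ± 0.95 for Cdc6 (0.784) and -1.92 ± 0.43 for Mcm5 (0.258). At the other end it was +0.08 ± 0.32 for Ttk, +0.05 ± 0.60 for Plk1 and -0.03 ± 0.29 for Mcm7. A fall over time under baricitinib that differs from vehicle was therefore not shown for any single member at the adjusted threshold.

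Further genes of the same pathway were read from lists chosen by function. Of 49 measured genes of replication and S phase beyond the members, 4 fell with baricitinib and 0 rose, against 1.55% and 0.500% of all genes. The median change was -0.72, and Clspn, Chek1 and Asf1b were among the 4. Clspn, which encodes the fork checkpoint mediator Claspin, stood at 8.87, 8.19 and 8.77 before and 5.0, 6.32 and 6.06 after baricitinib, and fell by 2.81 ± 0.36 (limma adjusted p = 0.00592). Chek1, the kinase that Claspin helps to activate, fell by 2.12 ± 0.33 (0.0132), from 8.22, 8.70 and 8.15 to 5.66, 6.45 and 6.60. Neither gene overlapped with another group after baricitinib. Asf1b, a histone chaperone, fell by 1.65 ± 0.25 (0.0129). At week 12 Clspn (-2.39 ± 0.36, 0.0165), Chek1 (-1.81 ± 0.33, 0.0364) and Asf1b (-1.30 ± 0.25, 0.0497) were also lower with baricitinib than with vehicle, so that 3 of the 4 genes called over time were called there. Over all genes 0.709% were called lower at week 12.

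Of 65 measured genes of mitosis and cytokinesis beyond the members, 16 fell with baricitinib and 0 rose, against 1.55% and 0.500% of all genes. The median change was -1.01, with 64 below 0. At week 0 the baricitinib mice already stood above the vehicle mice in 56 of these genes and below in 9, with a median difference of 0.3. In 10 they were higher without overlap, against 2.25% of all genes, and in 0 lower. At week 12 the median difference was -0.58. Cdca5, which encodes the cohesion factor sororin, fell by 2.69 ± 0.26 (limma adjusted p = 0.00128), from 9.03, 8.72 and 8.89 to 5.88, 6.42 and 6.26, with 7.94, 8.44 and 8.88 and then 8.10, 8.32 and 8.33 in the vehicle mice. Its values after baricitinib lay well below all others. Cdca5 was also the 1 gene of the list called at week 12 (-2.06 ± 0.26, 0.00861), where 0.709% of all genes were called lower. The kinesins Cenpe, which holds chromosomes at the spindle, and Kif18b, which trims microtubules, each fell by 1.89 (limma adjusted p = 0.0172 and 0.0182). Pbk, a mitotic kinase gene, fell by 1.78 (0.0152), Depdc1a fell by 1.71 (0.00817) and Cit, the citron kinase of cytokinesis, fell by 1.69 (0.0432). Depdc1a was dim, with every vehicle and week 12 baricitinib value below the lowest array median of 5.16. Its week 0 values were 4.91 to 5.49 in the baricitinib mice, above the 4.07 to 4.54 of the vehicle mice. At week 12 the groups of Depdc1a overlapped, at 3.39 to 3.66 with baricitinib and 3.64 to 4.08 with vehicle. The log2 difference there was -0.34 ± 0.23 (limma adjusted p = 0.71). With mouse as a fixed block the counts were 3 and 2 for the 2 lists, Clspn, Chek1, Cdca5 and Depdc1a being among the genes that kept their call. Without the 2 arrays of lowest correlation they were 12 and 17 over time and 10 and 8 at week 12.

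The brakes of the cycle showed no call. Of the 7 CDK inhibitors 0 were called over time with baricitinib, and their median change was 0.01. Cdkn2a, the locus of p16Ink4a and p19Arf, stood at 4.0, 4.02 and 3.83 before and 5.15, 4.92 and 4.52 after baricitinib (+0.91 ± 0.29, limma adjusted p = 0.177). With vehicle it stood at 4.28, 4.22 and 3.36 and then at 5.09, 5.10 and 4.58 (+0.97 ± 0.29, adjusted p = 1). Cdkn2a was thus higher at week 12 in 6 of 6 mice and without overlap over time in either treatment. Such a rise without overlap was seen in 8.94% of all genes with baricitinib and 5.94% with vehicle. The gene was dim, all its values lying below the lowest array median of 5.16. The other log2 differences with baricitinib were +0.55 ± 0.28 for Cdkn2c (p18), +0.14 ± 0.74 for Cdkn2d (p19), +0.01 ± 0.22 for Cdkn1b (p27), -0.06 ± 0.33 for Cdkn2b (p15), -0.12 ± 0.34 for Cdkn1a (p21) and -0.19 ± 0.33 for Cdkn1c (p57).

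Of 17 retinoblastoma family, E2F and MuvB partner genes, 2 fell with baricitinib, where 1.55% of all genes fell. Rbl1, the pocket protein p107, stood at 9.65, 9.35 and 9.45 before and 8.33, 8.46 and 8.43 after, and fell by 1.08 ± 0.18 (limma adjusted p = 0.0200), with vehicle values of 9.33, 9.34, 9.26 and then 9.28, 9.42, 9.47. E2f7, a repressor that E2F itself induces, fell by 1.99 ± 0.43 (0.0476). The 3 values of Rbl1 after baricitinib lay closely together and below all 9 others. Both genes were also lower than with vehicle at week 12, at -0.98 ± 0.18 (0.0422) and -2.24 ± 0.43 (0.0448), as were 0.709% of all genes. Of 15 other cyclin, CDK and Myc genes 1 fell over time, Mycn, a Myc family transcription factor, by 3.33 ± 0.63 (limma adjusted p = 0.0301), from 9.51, 7.26 and 9.11 to 5.35, 5.79 and 4.75. Vehicle mice had Mycn at 8.98, 7.85 and 8.57 and then at 5.88, 7.86 and 7.60, mouse 1 of them close to the highest value after baricitinib (vehicle difference -1.35 ± 0.63, limma adjusted p = 1). With mouse as a fixed block none of Rbl1, E2f7 and Mycn was called.

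Markers of other cell types moved over the same 12 weeks, in which 1.55% of all genes fell and 0.500% rose with baricitinib. Of 15 measured markers of hair matrix and follicle differentiation 7 fell with baricitinib (Krt35, Shh, Krt28, Krt71, Krt31, Krt27 and Msx2), their summed level per array (log2 of the summed signals) lying at 13.84 to 14.86 at week 0 and 11.66 to 12.11 at week 12, and Foxn1, Shh, Wnt10b, Krt35 and Krt28 lay below the array median on all 3 week 12 arrays. In vehicle mice the summed level was 12.23 to 14.78 and then 13.25 to 13.44, with 0 called. Of 17 markers of T cells and cytotoxic lymphocytes 6 fell with baricitinib (Gzma, Gzmb, Cd8a, Ifng, Ccl5 and Icos). In all 13 were below 0 and 4 above 0, 1 of these at an unadjusted limma p under 0.05 (6.73% of all genes). With vehicle 0 were called, 15 were below 0 and 3 of these had an unadjusted p under 0.05 in limma (1.31% of all genes). The summed level lay at 12.23 to 13.03 and then 10.84 to 11.66 with baricitinib, against 12.97 to 13.43 and then 12.11 to 13.07 with vehicle. After baricitinib Cd8b1, Gzmb, Ifng and Klrk1 lay below the array median on all 3 week 12 arrays. The hair matrix and T cell lists had their lowest mean level at week 12 of baricitinib, as the division genes did. So had the markers of activated epidermis, at 8.33 against 10.43 to 10.47 in the other groups. Macrophage and dendritic cell markers (8.20 against 8.35 to 8.49) and B and plasma cell markers (4.54 against 4.73 to 5.73) were also lowest there, but their arrays overlapped with vehicle at week 12. The macrophage list stood at 8.63, 8.02 and 7.94 with baricitinib and 7.96, 8.65 and 8.64 with vehicle. The B cell list stood at 5.20, 4.16 and 4.27, against 4.67, 4.84 and 4.66, and 5 of its 6 genes lay below the array median on all 3 arrays of both groups.

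Basal keratinocyte markers went the other way, in a comparison where 0.500% of all genes rose. Of 8, 3 rose with baricitinib (Krt15, Itgb4 and Col17a1) and their mean log2 value per array lay at 10.86 to 11.14 at week 0 and 11.44 to 12.17 at week 12. Of 8 markers of activated epidermis 0 were called over time with baricitinib, with a median of -2.20. But 7 were lower without overlap and at an unadjusted limma p under 0.05, as were 10.6% and 8.64% of all genes. Their summed level lay at 13.56 to 14.13 at week 0 and 12.35 to 13.17 at week 12, against 13.68 to 14.59 and then 13.26 to 14.33 with vehicle. At week 12 Sprr2d, a gene of the cornified envelope, was lower than with vehicle (-4.14 ± 0.74, limma adjusted p = 0.0362), as were 0.709% of all genes. Of 6 adipocyte markers 1 rose, Cidec, and all 6 were above 0 with a median of 2.16, the summed level lying at 12.29 to 13.35 and then 13.55 to 13.97, against 12.44 to 12.97 and then 12.06 to 13.07 with vehicle. At week 12, 5 of the 6 were higher than with vehicle without overlap, against 6.70% of all genes. Of 8 skeletal muscle, 9 macrophage and dendritic cell and 6 B and plasma cell markers 0 were called. The part of these cell types in the changes of the division genes was not tested.

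**Figure D5:**
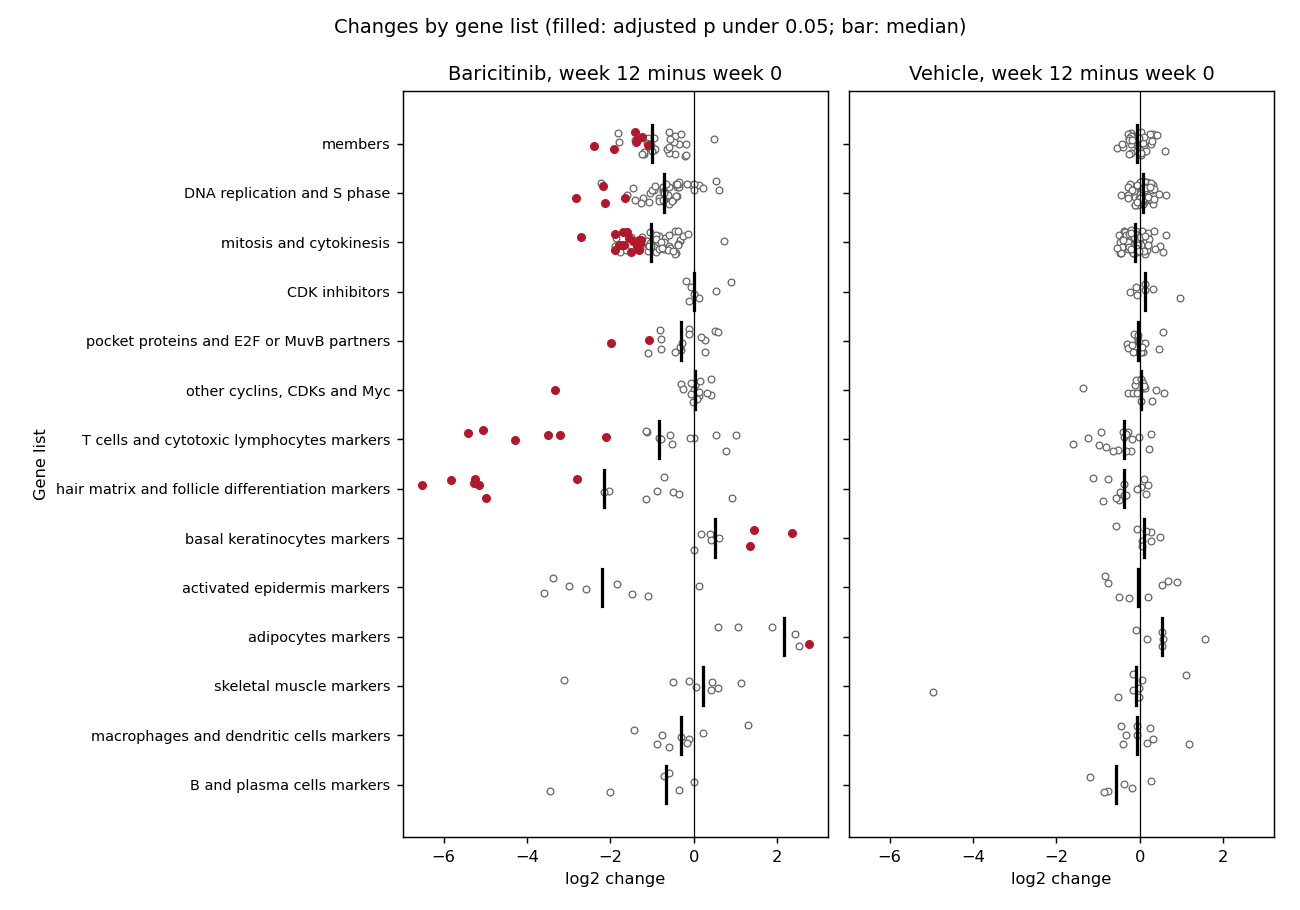
Log2 changes over 12 weeks for every measured gene of the members, the 5 wider cell cycle lists and the 8 marker lists (rows), with baricitinib on the left and vehicle on the right; each point is a gene, filled where the limma adjusted p is under 0.05, and the black bar is the median of the list (vertical scatter only separates points). With baricitinib the members, the 2 large division lists and the hair matrix, T cell and activated epidermis markers have medians between -0.72 and -2.20, and with vehicle 0 genes are filled.

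Where a gene had several probe sets they did not always run together. The 35 members had 80 probe sets, 26 members having more than 1, and with baricitinib 70 of the 80 were below 0 and 10 were called, all lower. In 7 members (Aurka, Ccnd1, Cenpa, Rrm1, Rrm2, Top2a and Tyms) the probe sets of the gene differed in sign. The second bright probe set of Mcm5 fell by 1.45 ± 0.28 (limma adjusted p = 0.0334) and that of Ccna2 fell by 1.66 ± 0.34 (0.0399), while the second probe set of Mcm2 had -0.52 ± 0.71 (0.846) and that of Bub1, dim at a mean of 2.61, had -0.87 ± 0.29 (0.209).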

How the data were processed

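RNA of whole skin was amplified (NuGen) and hybridised to Affymetrix mouse genome arrays, 1 per sample. The authors deposited log2 values after RMA, with no version in the sources used here; 45037 probe sets were used after 64 control probe sets were left out, and 34945 carried 1 symbol. The values were taken as deposited, and limma 3.58.1 (R 4.3.3) estimated 4 group means for every probe set over the 12 arrays, with Benjamini-Hochberg adjustment over all probe sets. Python 3.11.15, pandas 2.3.3 and matplotlib 3.10.9 made summaries and figures. The code was tested on simulated data. The number of arrays limits the precision.

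The members and gene lists were chosen with earlier results of these data known. The rule named the members called in a comparison (up to 12), or, where fewer than 3 were called, the 3 with the largest rise and the 3 with the largest fall, with a panel shown on every array (Mki67, Ccnd1, Ccne1, Mcm5, Pcna, Rrm2, Tyms, Cdk1, Top2a, Plk1 and Cenpa, Ccnb1 not being measured), up to 6 called genes of each wider list and all CDK inhibitors. The other members are given so that each is accounted for. Called genes of the wider lists beyond those 6 are given as counts, and 1 called gene that the rule would name is not reported here.

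The labels number the mice, and each mouse was sampled at both times. The correlation of the deviations of its samples from the group means was -0.36, -0.51 and 0.47 in baricitinib mice 1 to 3 and 0.44, -0.13 and 0.49 in vehicle mice. All 12 deposited arrays were used, although the study's methods removed some after quality control without naming them. Alternatives covered blocking, normalization, array weights, filters, probe sets and each array left out. Leaving out both arrays of lowest correlation and the actin and Gapdh covariate were chosen after seeing the data.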

Additional observations from a re-analysis of the deposited data

How the results depend on the processing

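With mouse as a fixed replicate block, which the repeated numbers allow over time only, 2 members and 5 genes of the wider lists were called lower with baricitinib, in place of 7 and 23. The block changed no call of the vehicle comparison or of the difference of changes. With mouse as a random block the counts were 7 and 1 member over time and at week 12, as without it. Fitting only the groups compared left 1 member and 2 wider genes over time, and 0 and 2 at week 12. Array weights, whose estimate stopped before it converged, gave 28 members and 109 wider genes over time and 18 and 86 at week 12. They gave 2 members with vehicle, 19 at week 0 and 28 in the difference of changes. Of all 18193 genes, weights called 2828 lower and 2367 higher over time, in place of 282 and 91. At week 12 they called 3039 and 1986, with vehicle 973 and 922, and at week 0 1373 and 986. In the difference of changes they called 1744 and 1260. The weight of vehicle week 0 mouse 2 was 32.1, while the other arrays had 0.132 to 5.30. The actin and Gapdh covariate gave 14 and 39 over time and 5 and 12 at week 12. Of all genes it called 618 lower and 465 higher over time, and 295 and 171 at week 12. Without both arrays of lowest correlation 3 members and 20 wider genes were called at week 12. At week 12, 2 members were called above the median level, and 0 after median centring, cyclic loess or averaging of probe sets. Averaging probe sets moved the median change over time to -0.71. The mitotic minus S phase difference was -0.16 over time with baricitinib, -0.18 with vehicle, 0.12 at week 12, 0.10 at week 0 and 0.02 in the difference of changes. It became 0.14 over time with baricitinib and 0.31 in the difference of changes without both arrays, and -0.28 in the latter by class medians.

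Leaving out each array in turn gave 0 to 7 members over time with baricitinib and 0 to 2 at week 12, and 3 to 32 and 1 to 12 wider genes. Median changes ran from -1.08 to -0.70 with baricitinib, -0.17 to 0.06 with vehicle, -0.80 to -0.47 at week 12, 0.13 to 0.39 at week 0 and -1.12 to -0.67 in the difference of changes. Mitotic minus S phase ran from -0.36 to 0.03, -0.31 to -0.02, -0.08 to 0.31, -0.03 to 0.26 and -0.18 to 0.21 in the same order.

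Differences near 0 changed sign. Over single arrays left out, those with baricitinib ran from -0.72 to 0.13 for Ccnd1, -0.63 to 0.11 for Tyms, -0.53 to 0.07 for Plk1, -0.45 to 0.11 for Cdkn1a, -0.13 to 0.22 for Cdkn1b, -0.50 to 0.06 for Cdkn1c, -0.30 to 0.21 for Cdkn2b and -0.36 to 1.06 for Cdkn2d. At week 12 they ran from -0.27 to 0.13 for Mcm4, -0.17 to 0.17 for Ttk, -0.20 to 0.41 for Kif20a and -0.32 to 0.08 for Plk1, and at week 0 from -0.77 to 0.72 for Cdc6 and -0.49 to 0.31 for Plk1. In the difference of changes they ran from -0.15 to 0.06 for Mcm7, -0.43 to 0.37 for Plk1 and -0.11 to 0.23 for Ttk. Array weights turned Kif11 with vehicle to 0.44, Mcm4 and Kif20a at week 12 to 0.17 and -0.15, Cdc6, Plk1 and Mcm7 at week 0 to 0.90, 0.42 and 0.16, and Plk1 in the difference of changes to -0.53. Without both arrays Mcm4 and Plk1 at week 12 became 0.13 and 0.08, Cdc6 and Plk1 at week 0 became 0.72 and 0.17, and Plk1 in the difference of changes -0.09. Averaged probe sets gave 0.06 for Ccnd1 and 0.04 for Tyms at week 12, 0.11 for Mcm7 in the difference of changes and 0.24 for Cdkn1a over time. Median centring gave -0.04 for Ttk at week 12, -0.05 for Cdkn1b and, in the difference of changes, -0.02 for Plk1, which was -0.01 with cyclic loess and -0.67 with the covariate. The covariate gave -0.04, 0.21, 0.33 and -1.03 for Cdkn1b, Cdkn1c, Cdkn2b and Cdkn2d. The causes were not tested. Of 1706 alternative values of single genes, 1416 kept direction and side of the threshold, 194 lost a call, 30 gained one and 66 changed sign. With 3 mice a group and whole skin as the sample, the number of arrays limits what can be called.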
